A study of Mus musculus with 4 samples.

Results

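Canonical piRNAs of 26 to 28 nt are described here in small RNA libraries from 4 C57BL mouse samples. The members were chosen by label and sequence alone. They are the distinct sequences that the deposited files label piRNA and mark as matching the genome, that are 26, 27 or 28 nt long and that begin with T (U in the RNA). There were 36654 such sequences among 1611102 distinct sequences in the series, and they were 14.4% of the 253701 distinct genome-matched piRNA-labelled sequences of all lengths. They took 1031167 of 83937902 reads. No member row failed the rule in its own file.

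The Mdd group, named as in the labels, had 2 samples from mice given varied daily stressors in random order: an empty cage, a tilted cage, damp bedding, white noise, strobe light, restraint, social isolation and circadian disturbance. The control group had 2 samples from mice left alone apart from feeding and cage cleaning. No genetic alteration is named for either group, and ages are not given in the labels. The protocol names sperm as the source of the RNA, with a size selection of 18 to 40 nt, while the tissue and cell type fields name testis and testicular cells. Nothing says that the 2 samples of a group came from different animals, so the spread behind each p-value is that between these libraries and may be technical.

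PIWI-interacting RNAs are germ line small RNAs that guide Argonaute proteins of the PIWI family to transposon and messenger transcripts. Most begin with U, the base their PIWI partner prefers at the 5′ end. In the adult mouse testis MILI carries the shorter piRNAs and MIWI the longer ones, and the abundant pachytene piRNAs are cut from long non-coding precursor transcripts made in meiotic cells. When 1 piRNA guides the slicing of a transcript on the opposite strand, the piRNA made from the cut has a 5′ end that overlaps the guide by 10 bases, the ping-pong signature, and tends to carry A at position 10.

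Some members could be located in annotated transcripts. The rest of the genome was not searched, so further matches are possible and a match does not settle where a sequence came from. The 6 printed here are the most read member of each of the 5 genes with the most member reads, and the located member among those of lowest p for Mdd against control. Capitals mark base 1, fixed by the rule, and base 10, which the rule did not use. Coordinates are on GRCm38, by exact match to GENCODE transcripts.
1700001L05Rik: TtctcttggGactgtagactggttgc
Tbl2: TcaataaatGggactctgactagaagta
Gm49794: TacaaagatAggacctcgctgctaatgc
Gm5878: TgatttccaGtctgttgctcatgaggga
Gm42811: TgctttgagTtcctgcgggtagcctg
Eif4ebp2: TtttactgtCgggaattgggtttctgc
The 1700001L05Rik sequence lies at chr15:83355337-83355362 on the minus strand, in an exon of a long non-coding RNA and sense to it. The Tbl2 sequence lies at chr5:135162215-135162242 on the plus strand, in the 3′ UTR of a protein-coding gene. The Gm49794 sequence lies at chr17:27358714-27358741 on the plus strand and the Gm5878 sequence at chr6:85112846-85112873 on the minus strand, both in exons of long non-coding RNAs and sense to them. The Gm42811 sequence lies at chr6:127808249-127808274 on the plus strand, antisense to an exon of that transcript. The Eif4ebp2 sequence lies at chr10:61429496-61429522 on the minus strand, in the 3′ UTR of the gene for a translation repressor that binds the cap-binding protein eIF4E.

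Member reads numbered 149587 and 370591 in the controls and 336606 and 174383 in Mdd. Total reads were 12845403 to 24112532 per sample, and reads of 18 nt or longer 9706895 to 23806805. Reads under 18 nt made up 24.4% and 26.95% in control and 1.18% and 1.27% in Mdd, so levels are given as reads per 1000000 reads of 18 nt or longer (CPM). Germ cell miRNAs were present in all samples: miR-34b, miR-34c and miR-449a summed to 1656 and 1623 CPM in the controls and 2155 and 835 CPM in Mdd. Striated muscle miRNAs (miR-1a, miR-133a and miR-206) summed to 966 CPM in control replicate 2 and to 3.86 to 25.9 CPM in the other 3 samples. Smooth muscle and stromal miRNAs (miR-143 and miR-145a) summed to 1016 CPM there and 225 to 356 CPM elsewhere, and epithelial ones (miR-200a, miR-200b and miR-429) to 209 and 35.7 to 47.5 CPM. Blood cell miRNAs (miR-451a, miR-142a and miR-223) summed to 92.6 CPM there and 190 to 482 CPM elsewhere. Most of this was miR-451a, at 88.2 CPM in control replicate 2. By contrast miR-223 was highest there, at 3.04 CPM against 0.206 to 0.630 CPM. Neuronal miRNAs (miR-124 and miR-9) summed to 77.1 CPM in Mdd replicate 1 and to 7.31 to 19.6 CPM in the other 3 samples. That sum was mostly miR-124, at 76.6 CPM, while miR-9 was lowest in Mdd replicate 1, at 0.505 CPM. Control replicate 2 also had the highest member level, and the part of other cells in it was not tested.

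Reads per member differed in form between the libraries. The most common number of reads per member was 6 and 10 in the controls. In Mdd it was 1, with 2289 members in replicate 1 and 1270 in replicate 2. Smoothed over neighbouring counts and above the lowest counts, Mdd peaked at 39 reads in replicate 1 and 7 in replicate 2. The values 6, 10, 39 and 7, all found in this way, are called peak numbers below. A second set of members at 1 or a few reads stood apart from these peaks in Mdd. Below the minimum between both sets lay none of the members of control replicate 1, 3.72% of those of control replicate 2, 35.6% in Mdd replicate 1 and 20.6% in Mdd replicate 2. Of the 1270 members with a single read in Mdd replicate 2, 67.6% were also found in Mdd replicate 1, where their median was 48 reads. Of those with 3 to 5 reads in Mdd replicate 2, 21.6% were found there. The single-read members of Mdd replicate 1 did not show this. Of these 2289, 14.5% were found in Mdd replicate 2, where their median was 13 reads. Of the members with 21 to 50 reads in Mdd replicate 1, 38.8% were found in Mdd replicate 2. Results on diversity, sharing and A at position 10 are therefore given with and without the members below the minimum, a choice made after these values were seen.

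**Figure D1:**
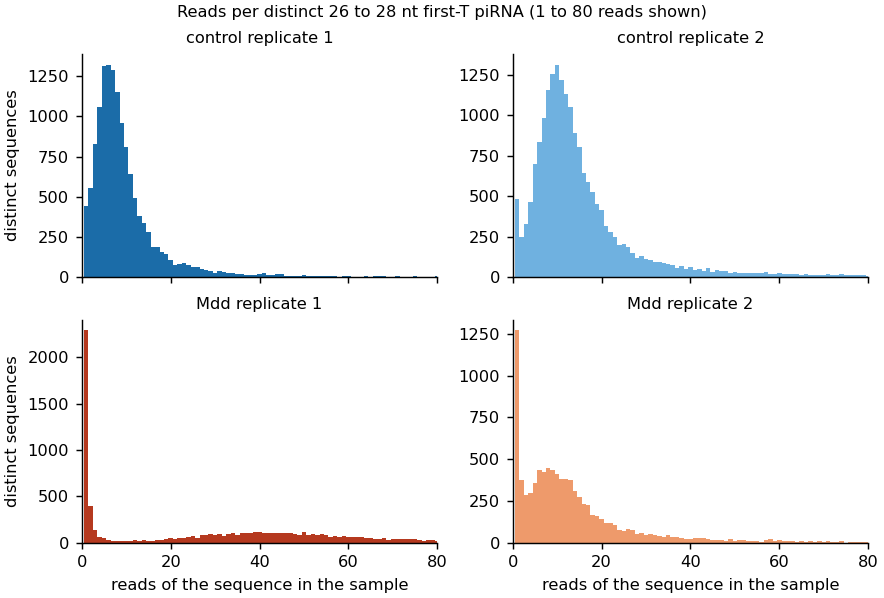
Number of distinct 26 to 28 nt first-T piRNAs (vertical axis) with each number of reads from 1 to 80 (horizontal axis) in each of the 4 samples. Control replicate 1 has 1 peak at 6 reads, and Mdd replicate 1 has a tall bar of 2289 members at 1 read and a broad peak at 39 reads.

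The 26 to 28 nt members were a shoulder of the piRNA length profile, with no peak of their own. First-T, genome-matched, piRNA-labelled reads at 26 nt were 4825 and 6422 CPM in the controls and 4338 and 2289 CPM in Mdd. At 28 nt they were 5806 and 8652 CPM against 5354 and 2753 CPM. The profile was highest at 30 nt in every sample, with 17394 and 25601 CPM in the controls and 13329 and 7163 CPM in Mdd. Within the members, 28 nt was the most read length in all 4 samples, with 37.7% and 39.1% of member reads in the controls and 37.8% and 37.6% in Mdd. The groups overlapped (exact two-sided permutation test, 2 against 2 samples, p = 0.667). Among all genome-matched piRNA-labelled reads, those that began with T were 85.2% to 92.4% at the member lengths.

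**Figure D2:**
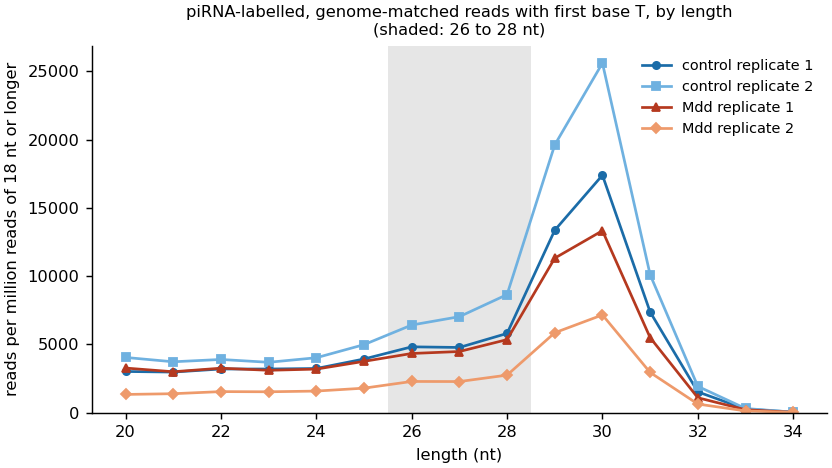
Reads of piRNA-labelled, genome-matched sequences that begin with T (vertical axis, CPM) by length in nt (horizontal axis), 1 line per sample, with the member lengths shaded. All 4 lines climb slowly through 26 to 28 nt and peak at 30 nt, between 7163 CPM in Mdd replicate 2 and 25601 CPM in control replicate 2.

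Member reads were a smaller share of the Mdd libraries by the main measure. They were 1.54% and 2.21% of reads of 18 nt or longer in the controls (1.88% ± 0.474, SD, n = 2) and 1.42% and 0.732% in Mdd (1.07% ± 0.484, SD, n = 2). Both Mdd samples lay below both controls, with Mdd replicate 1 close to control replicate 1 and Mdd replicate 2 far lower. The difference was -0.801 percentage points (exact two-sided permutation test, p = 0.333, the smallest p that 2 against 2 samples allow). The 95% Wilson interval for counting error, with reads divided by the peak number, was 1.52% to 1.56% for control replicate 1. For Mdd replicate 1 it was 1.39% to 1.45%. As a share of all reads the groups overlapped, at 1.16% and 1.61% against 1.40% and 0.723%. As a share of piRNA-labelled reads they also overlapped, at 6.03% and 9.18% against 6.47% and 4.38%. In bulk libraries, fewer germ cells, less piRNA per cell and a difference in library preparation cannot be told apart. Reads under 18 nt, at 24.4% and 26.95% in control and 1.18% and 1.27% in Mdd, also split the libraries by group. The same limit holds for the diversity of members given below. Of 11 measures compared by the exact permutation test, 8 did not overlap between the groups. The adjusted p of each of these (Benjamini-Hochberg) was 0.458.

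The Mdd libraries held fewer different members. Distinct members numbered 13818 and 19607 in the controls and 8405 and 9354 in Mdd. Thinned to 149587 member reads each, the samples held 13818 and 18940 in the controls and 6979 and 9165 in Mdd (exact two-sided permutation test, p = 0.333). With reads first divided by the peak number, and thinned to 8535 such units, the numbers were 5927 and 6165 against 5146 and 4276. Without the members below the minimum of reads, the thinned numbers were 13818 and 18589 against 5417 and 7423. Counting only members with at least 10 reads, the groups overlapped, at 4897 and 13062 against 5397 and 5031. The effective number of members, the exponential of the Shannon entropy of their read shares, was 8754 and 11364 in the controls and 4287 and 4335 in Mdd (exact two-sided permutation test, p = 0.333). Without the members below the minimum it was 8754 and 11241 against 4025 and 4042. No small set of members held most of the reads. The 10 most read members of each sample took 2.78% to 3.64% of its member reads. The 1000 most read took 31.7% and 30.4% in the controls and 42.4% and 50.2% in Mdd.

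Most members were found in 1 sample only. Of the 36654, 27181 (74.2%) were in 1 sample, 5846 in 2, 2197 in 3 and 1430 (3.90%) in all 4. Without the members below the minimum of reads, 988 (2.92%) were in all 4. The 1430 held 29.1% and 27.7% of member reads in the controls and 37.7% and 32.6% in Mdd. Control replicate 1 shared 36.7% of its members, holding 54.8% of its member reads, with control replicate 2, which shared 25.9% of its own. Mdd replicate 1 shared 36.2% of its members with Mdd replicate 2, which shared 32.5% of its own. Without the members below the minimum, these shares were 26.7% and 19.5%. Mdd replicates 1 and 2 then shared 44.8% and 39.3% with control replicate 2. That control then held 18878 members, against 5417 and 7423 in Mdd. A longer list gives more matches, so these shares do not rank the likeness of the libraries. Across the 1430 sequences, Pearson's correlation of log2 CPM was 0.59 between the controls and 0.14 between the Mdd samples. Between groups it was 0.50 for control and Mdd replicates 2, 0.44 for control replicate 1 with Mdd replicate 2, and 0.33 and 0.27 for Mdd replicate 1 with control replicates 1 and 2. These are values across sequences, which are not independent replicates.

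Base use along the members was uneven near the 5′ end. G was at position 2 in 33.5% of distinct members and A at position 5 in 35.1%, the highest share of A at any of positions 2 to 26. A at position 10, the base that ping-pong partners tend to carry, was in 23.2%. Elsewhere A was in 20.2% to 35.1%, with a median of 22.2%, and 10 of the other 24 positions had more of it. By sample, A was at position 10 in 22.0% and 22.9% of members in the controls and in 22.1% and 22.4% in Mdd. The groups overlapped, with a difference of -0.233 points (exact two-sided permutation test, p = 1.0). Without the members below the minimum of reads they did not, at 22.02% and 22.9% against 20.03% and 22.00%. The difference was -1.46 points (p = 0.333 by the same exact permutation test). Control replicate 1 and Mdd replicate 2 were then almost equal. This cut took 0.0% and 3.72% of the members of the controls and 35.6% and 20.6% of those of Mdd. The last base was T in 33.2% and C in 30.002% of members, and A in 17.1%.

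**Figure D3:**
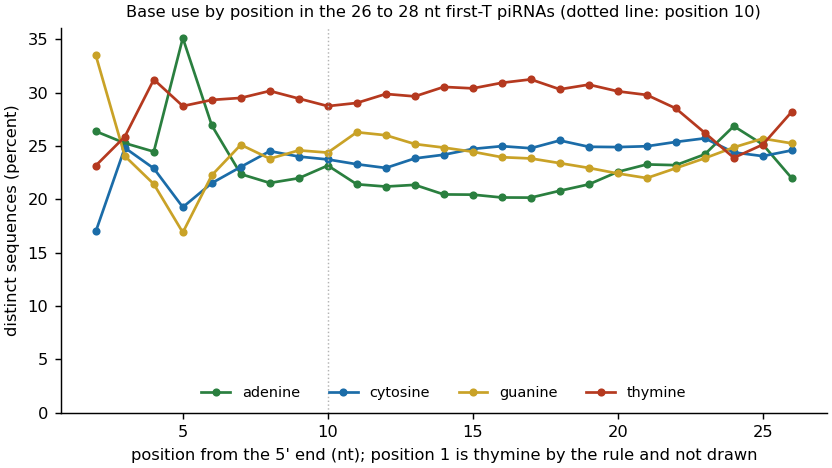
Share of distinct members (vertical axis, percent) with each base at positions 2 to 26 from the 5′ end (horizontal axis), over all 4 samples, 1 line per base. Adenine is highest at position 5 (35.1%) and is at 23.2% at position 10, while guanine is highest at position 2 (33.5%).

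For each measure below, members differed from a given neighbouring class in the same direction in all 4 samples. The direction was not always the same against both classes. Against first-T piRNAs of 29 to 32 nt the difference in A at position 10 was -2.77 ± 0.352 percentage points (SD over 4 samples). Their GC content beyond the first base was higher, by 2.93 ± 0.259 points. The share found in all 4 samples differed by -8.11 ± 2.57 points of sequences and -22.9 ± 2.17 points of reads. Against sequences of 26 to 28 nt that did not begin with T, the difference in A at position 10 was -6.16 ± 1.08 points. The share found in all 4 samples was higher by 7.65 ± 2.98 points, and GC content beyond the first base differed by -1.20 ± 0.476 points. An exact two-sided paired permutation test gave p = 0.125 for each, the smallest that 4 pairs allow, and the adjusted p over 12 comparisons was 0.125. The classes also differed in size and depth. The 29 to 32 nt class had 56407 sequences and 2482037 reads, and the members 36654 and 1031167. The class without first T had 6211 and 118273. Mean reads per sequence of members differed by -7.25 ± 3.13 from the longer class and by 4.11 ± 2.67 from the class without first T. The part of size and depth in the sharing was not tested. G at position 2 was in 33.5% to 34.2% of members by sample, in 27.9% to 28.8% of the 29 to 32 nt class and in 17.2% to 18.4% of the class without first T. A at position 5 was in 35.3% to 37.0% of members and in 37.5% to 39.2% of the 29 to 32 nt class. In the class without first T it was in 29.8% to 30.6%. These 2 positions were chosen after their values were seen.

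Many members were the 5′ part of a longer piRNA. Within the same sample, 42.1% and 44.8% of members in the controls and 36.3% and 37.6% in Mdd were a 29 to 32 nt sequence without its 3′ end. These members held 52.5% and 58.0% of member reads in the controls and 46.1% and 47.1% in Mdd. The groups did not overlap in either measure (exact two-sided permutation test, p = 0.333 for each). Distinct first-T sequences of 29 to 32 nt numbered 25250 and 32619 in the controls and 15030 and 16908 in Mdd. A longer list gives more matches, and the part of list size was not tested. The 3′ part of such a sequence was found in 11.5% to 16.3% of members. A 5′ part keeps the first base of the longer sequence and a 3′ part does not. The rule of a first T thus favours 5′ parts, and no contrast is drawn. Grouped by their first 20 bases, the members formed 28452 families, of which 21955 had 1 member. In 12977 families (45.6%) there was also a first-T sequence of 29 to 32 nt, and in 7977 the longer forms had more reads than the members.

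The forms of the Tbl2 family share their first 26 bases and differ at the 3′ end. It is shown because it was the most read located family with members of all 3 lengths and with forms of 29 and 30 nt. Capitals mark the bases beyond 26.
26 nt: tcaataaatgggactctgactagaag
27 nt: tcaataaatgggactctgactagaagT
28 nt: tcaataaatgggactctgactagaagTA
29 nt: tcaataaatgggactctgactagaagTAA
30 nt: tcaataaatgggactctgactagaagTAAT
Over the 4 samples these forms had 28, 34, 2711, 70 and 155 reads in that order, so the 28 nt form carried most of the family. The 28 nt form had 517 and 1298 reads in the controls and 783 and 113 in Mdd, while the 30 nt form had 31 and 84 against 40 and 0.

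Families differed in the length they favoured. The family of highest mean CPM, from 1700001L05Rik, had 5952 of its 5958 member reads at 26 nt and only 13 reads at 29 to 32 nt. The third family had no 26 nt reads, 725 at 27 nt and 3382 at 28 nt, beside 7181 reads of longer forms. The fourth had 1540 reads at 26 nt, 1848 at 27 nt and 53 at 28 nt, with 117 in longer forms. The third and the fourth were not located in annotated transcripts, so they are named by rank only.

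The most read member of all was the 26 nt sequence from 1700001L05Rik printed above. It had 1028 and 2396 reads in the controls and 2037 and 491 in Mdd, or 106 and 143 CPM against 85.8 and 20.6 CPM. Both Mdd samples were lower than both controls, Mdd replicate 2 by far the lowest. edgeR's quasi-likelihood test gave a log2 fold change of -1.08 (SE 0.773) and an adjusted p of 0.944. The log2 fold change was -1.94 without Mdd replicate 1 and -0.58 without Mdd replicate 2. The Tbl2 sequence of 28 nt ranked 4 by mean CPM, at 53.3 and 77.4 CPM in the controls and 32.97 and 4.75 CPM in Mdd. Its log2 fold change was -1.71 (SE 0.922, edgeR, adjusted p = 0.644), and -3.13 without Mdd replicate 1 and -1.03 without Mdd replicate 2. The second member by mean CPM, 28 nt long and not located, stood at 50.99 and 62.2 CPM against 50.7 and 26.9 CPM. The third, also of 28 nt and not located, stood at 51.7 and 65.5 CPM against 49.3 and 9.49 CPM. Members 5 to 10 were not located either. Their mean CPM was 37.9 for the fifth and 22.3 for the tenth. The 1700001L05Rik sequence was also the most read member in both controls and in Mdd replicate 1. In Mdd replicate 2 the most read was another, of 28 nt and not located, with 1016 reads there, 145 in Mdd replicate 1 and 3 and 141 in the controls.

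No member passed the test of Mdd against control. edgeR's quasi-likelihood test called 0 of 79093 annotated sequences at an adjusted p under 0.05 (0.0%), and 0 of the 5739 members tested. The other members of the 36654 did not pass the filter on low counts (filterByExpr). That filter goes by samples as well as reads, and 27181 of the 36654 were found in 1 sample only. At an unadjusted p under 0.05 there were 1282 of the tested members (22.3%) and 10447 of all sequences (13.2%). A member could pass the filter through the group where it was high, so this count gives no support to a difference. The lowest adjusted p of a member was 0.182. It was shared by 196 members, all with 0 reads in both Mdd samples and with 5 to 14 reads in each control. The Eif4ebp2 sequence had 0 reads in both controls and 19 and 14 reads in Mdd (edgeR, adjusted p = 0.223). The members that stood highest in Mdd at low p were thus at 0 in the controls, and those that stood lowest were at 0 in Mdd.

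DESeq2 called 245 of the 79093 sequences (0.31%), with 6 members among them, 5 higher and 1 lower in Mdd. All 6 had 0 reads in both samples of the group where they were low, and none was located. The member with the lowest adjusted p (DESeq2, 0.0059) had 54 and 270 reads in Mdd. The 1 lower in Mdd had 36 and 117 reads in the controls. Without Mdd replicate 1, edgeR called 103 of 11750 members tested (0.877%) and 2166 of 146831 sequences (1.48%). Without Mdd replicate 2 it called 2 of 12965 members and 201 of 143507 sequences (0.14%). In both fits Mdd is 1 library, assumed to vary like the controls. Summed over families, edgeR called 0 of 50916 families (0.0%) and 0 of the 3773 member families tested, with 806 of them (21.4%) and 7504 of all families (14.7%) at an unadjusted p under 0.05. DESeq2 called 280 families (0.55%), 9 of them member families. Without Mdd replicate 1, edgeR called 121 of 6629 member families (1.83%) and 3.07% of all families, and without Mdd replicate 2 it called 17 of 6992 (0.243%) and 0.404%. In counts simulated for the sequences with the dispersion estimated from them, 2.10, edgeR recovered 0 of 100 changed by 16-fold. With a dispersion of 0.1 it recovered all 100 of these, and 43 of 100 changed by 4-fold. The changed sequences came from all classes and only from those with more reads, so these numbers do not describe members.

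Of the 36654 members, 5880 (16.04%) matched an annotated transcript exactly. They held 12.2% to 13.5% of member reads by sample. Among first-T sequences of 29 to 32 nt, 14.1% were located, and among those of 26 to 28 nt without first T, 28.8%. Transcripts of 1 gene were matched by 5031 members, in 1228 genes, and transcripts of several genes by 849. Of the 5031, 2632 (52.3%) were sense to protein-coding genes and 978 (19.4%) sense to long non-coding RNAs. Another 425 (8.45%) were antisense to pseudogenes and 220 antisense to protein-coding genes. Of the members sense to protein-coding genes, 1899 (72.2%) lay in a 3′ UTR, 597 in coding sequence and 103 in a 5′ UTR, with a 3′ UTR match taken first where transcripts differed.

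The 3 genes with the most member reads were long non-coding RNAs. Gm49794 on chromosome 17 had the most, with 350 members, all sense, between positions 27354791 and 27366447. Their summed level was 211 and 258 CPM in the controls and 194 and 104 CPM in Mdd. 1700001L05Rik on chromosome 15 had 169 members, all sense, at 175 and 255.98 CPM against 142 and 49.0 CPM. Gm5878 on chromosome 6 had 139 members, 138 of them sense, at 86.4 and 131 CPM against 66.2 and 28.2 CPM. In these 3 loci both Mdd samples lay below both controls. Of the genes with at least 100 member reads, 34.6% (36 of 104) had this order and 5.77% (6) the opposite one. As a share of the sample's member reads, Gm49794 was at 1.37% and 1.17% in the controls and 1.37% and 1.42% in Mdd, and Mdd replicate 1 lay between the controls. By that share 17 of the 104 genes (16.3%) were lower and 18 (17.3%) higher in both Mdd samples.

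Near Gm49794 lay other genes matched by members. On the same strand Gm10505 had 79 members between positions 27325363 and 27342795, 74 of them sense. On the opposite strand Gm49793 had 26 members between positions 27308332 and 27318689. Gm10505 stood at 37.8 and 35.0 CPM in the controls and 24.1 and 12.9 CPM in Mdd. Gm49793 stood at 23.1 and 24.3 CPM against 20.9 and 18.5 CPM.

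Among protein-coding genes, Tbl2 had 91 members, all sense and in the 3′ UTR, at 91.2 and 120 CPM in the controls and 56.1 and 18.8 CPM in Mdd. As a share of member reads it was at 0.592% and 0.544% against 0.396% and 0.256%, so that both Mdd samples were again lower. Cbl, the gene for an E3 ubiquitin ligase of receptor tyrosine kinases, had 119 sense members, all in the 3′ UTR, at 33.6 and 51.8 CPM against 34.7 and 8.48 CPM, and the groups overlapped. Ago2, the gene for the slicing Argonaute of the miRNA pathway, had 85 members, 84 of them sense and 81 of these in the 3′ UTR, at 22.9 and 31.4 CPM against 16.1 and 13.9 CPM. Nemp1, which encodes a protein of the nuclear envelope, had 114 sense members, 90 in the 3′ UTR and 23 in coding sequence, at 39.3 and 53.7 CPM against 30.5 and 28.52 CPM. Its 3′ UTR members had 280 and 696 reads in the controls and 258 and 245 in Mdd, and its coding members 101 and 204 against 409 and 434, so that coding members had more reads in Mdd only.

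At other loci the members matched almost wholly the antisense strand. Gm42811 on chromosome 6 had 136 members, 1 of them sense, at 66.1 and 71.6 CPM in the controls and 54.2 and 16.1 CPM in Mdd. Stox1, on chromosome 10, had 116 members, 3 of them sense, at 40.8 and 46.3 CPM against 38.0 and 27.4 CPM. CT025671.4 on chromosome 17 had 100 members, 6 of them sense, at 34.6 and 51.4 CPM against 37.4 and 11.3 CPM.

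**Figure D4:**
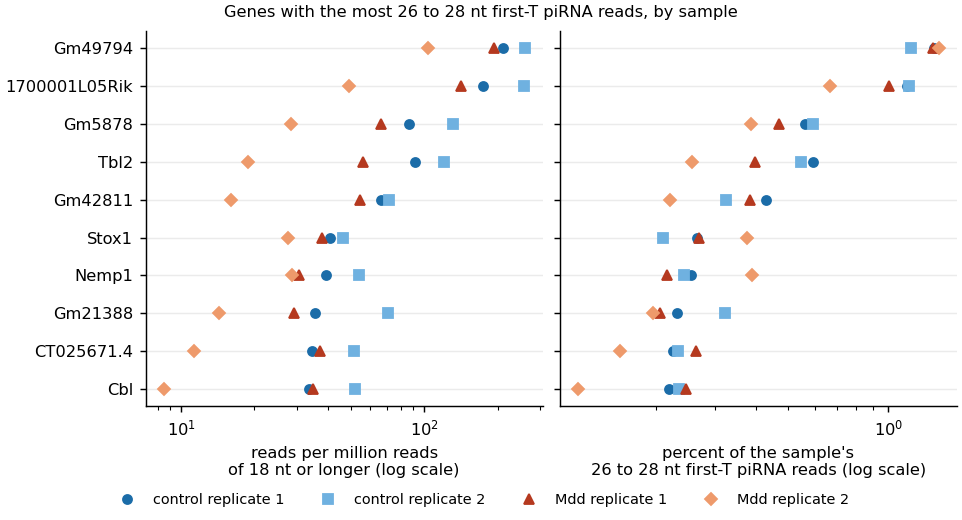
Summed level of members in each of 10 genes (rows) in CPM (left, log scale) and as percent of the sample's member reads (right, log scale), 1 point per sample. On the left Mdd replicate 2 is the lowest point in all 10 genes, with Gm49794 at 104 CPM, and on the right Gm49794 is at 1.42% in that sample, the highest of the 4.

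Loci differed in how far they favoured the longer class. Over all sequences there were 2.57 and 2.59 reads of 29 to 32 nt per member read in the controls and 2.20 and 2.27 in Mdd. At 1700001L05Rik the ratios were 0.560 and 0.883 against 0.774 and 1.18, and at Gm5878 5.04 and 5.51 against 5.33 and 2.64. 1700001L05Rik, Gm49794, Tbl2 and Stox1 took a larger share of member reads than of 29 to 32 nt reads in 4 of 4 samples, and Gm5878 a smaller share in 4 of 4. Single sequences weighed heavily at 1700001L05Rik and Tbl2. The 26 nt sequence printed above held 1028 and 2396 of the 1698 and 4291 member reads of 1700001L05Rik in the controls. In Mdd it held 2037 and 491 of 3373 and 1166. The 28 nt Tbl2 sequence held 517 and 1298 of 885 and 2017 member reads in the controls. Its part in Mdd was 783 and 113 of 1333 and 447. Loci without these sequences were not tested. The 10 genes compared were those with the most member reads, a choice that favours a larger share of member reads, so no test is given.

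Overlaps of 5′ ends on opposite strands gathered at 10 bases. Among located sequences of 24 to 33 nt, over all 4 samples, 38 pairs with at least 1 member overlapped by exactly 10 bases. At every other overlap from 1 to 26 bases there were at most 11 pairs, with a median of 6. Sequences with the same 5′ end form several pairs, and counted once for each pair of 5′ ends there were 21 at 10 bases and at most 6 at any other overlap. The 38 pairs lay in 9 genes and held 33 members. CT025671.4 had 16 of them and Gm42811 had 5, both loci with members mainly antisense to the annotated transcript. In 26 of the 38 pairs both sequences were found in the same sample. Within single samples the pairs at 10 bases numbered 10 and 8 in the controls and 4 and 6 in Mdd.

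The 3 pairs in which both sequences are members show this overlap. Capitals mark the first 10 bases, which are the reverse complement of each other within a pair.
CT025671.4 plus strand: TGAACTGCAAgtctggccctgctctgtc
CT025671.4 minus strand: TTGCAGTTCAgactgtccacagcagcc
Gm10505 plus strand: TGATAGTGGAaactggcgctagtccccc
Gm10505 minus strand: TCCACTATCAgggacggaaaccttaaac
Gm42811 plus strand: TAGTAGTAGAattggccctctgtcctcc
Gm42811 minus strand: TCTACTACTAccgatccttctgtccgc
The CT025671.4 pair lies at chr17:66194822-66194849 and chr17:66194805-66194831, the Gm10505 pair at chr17:27325503-27325530 and chr17:27325485-27325512, and the Gm42811 pair at chr6:127809723-127809750 and chr6:127809706-127809732. In each pair both sequences begin with T and have A at base 10, as the reverse complement of a first T requires. Reads were few: the CT025671.4 plus strand sequence had 7 and 0 in the controls and 66 and 12 in Mdd, and its partner 18 in control replicate 2 alone. The Gm10505 sequences had 10 reads in control replicate 1 and 14 in control replicate 2. In none of these 3 pairs were both sequences found in the same sample.

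**Figure D5:**
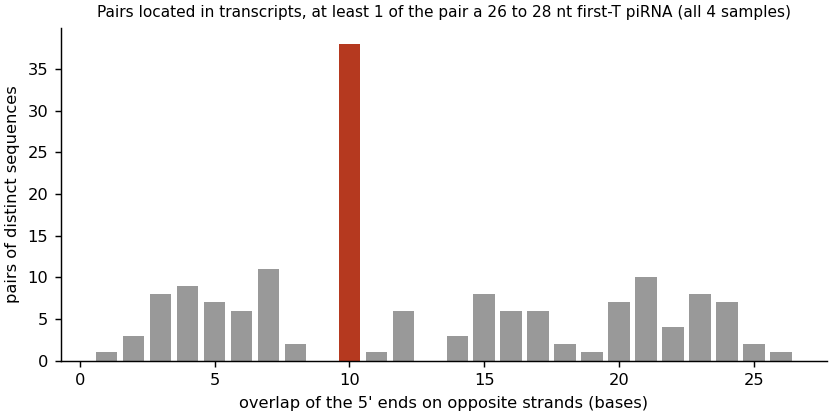
Number of pairs of distinct sequences on opposite strands (vertical axis) by the overlap of their 5′ ends in bases (horizontal axis), for pairs located in annotated transcripts with at least 1 member, over all 4 samples. The bar at 10 bases reaches 38 pairs and no other bar is above 11.

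Matching by sequence alone, without a position, reached the members that were not located. A member and another sequence of 24 to 33 nt in the same sample were counted as a pair where their first 10 bases were reverse complements. This gave 1531 and 3269 pairs in the controls and 909 and 907 in Mdd. Chance matches fall as the overlap grows, so the number at 10 bases was set against the geometric mean of those at 9 and 11. The ratio was 1.85 and 1.89 in the controls and 2.97 and 2.13 in Mdd, while the same ratio at 7, 8 or 9 bases was 0.614 to 1.11. The divisor of the ratio at 9 holds the pairs at 10, which lowers that ratio. The rise at 10 was not the only one. Pairs at 16 bases numbered 14 and 49 in the controls and 15 and 28 in Mdd. At 15 bases there were 1 and 21 against 8 and 0, and at 17 bases 5 and 7 against 0 and 2. Sequences with the same 5′ end form several pairs here too, which raises the ratios of pairs to an extent not tested. A partner at 10 bases was found for 810 and 1467 members in the controls and for 361 and 442 in Mdd. At 9 bases the numbers of members were 1563 and 2962 against 727 and 903. At 11 bases they were 163 and 310 against 59 and 80. No test was made of the ratios.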

How the data were processed

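Small RNAs were sequenced in 4 samples, 2 per group. The deposited files give the count of reads for each distinct sequence with its length, genome match and annotation. The submitters' processing notes name mm9 and DESeq2 without a version; the sources used here give no aligner or annotation source. The files hold no coordinates, so members were located by exact match, on both strands, to GENCODE M21 transcripts (GRCm38), and members outside them are named by rank of mean CPM. No per-sample column was left unused.

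The authors' deposited counts were joined by sequence. Main tests were edgeR 4.0.16 (R 4.3.3) quasi-likelihood fits with TMM scaling and filterByExpr on all annotated sequences of 18 nt or longer, and on 5′ families of equal class and first 20 bases, with Benjamini-Hochberg adjustment; DESeq2 1.42.0 was an alternative. Values per sample were compared by exact permutation. The edgeR fits were tested on simulated data. Named members were the 10 of highest mean CPM, the most read per sample, the 3 of lowest p in each direction, the most read in each of the 5 leading genes, and 3 pairs. Replicate numbers share no stated animal or batch, and same-numbered samples deviated with a correlation of 0.00975. Members and lists were chosen with earlier results of these data known. Intervals are 95% Wilson and cover counting error only; reads carry no molecular identifiers.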

Additional observations from a re-analysis of the deposited data

How the results depend on the processing

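Leaving out each sample in turn gave a Mdd minus control difference of -1.14 to -0.459 percentage points for the member share, -10868 to -5746 for distinct members at equal depth, -7053 to -4443 for the effective number, -1.46 to -0.000135 points for the 28 nt share and -0.695 to 0.229 points for A at position 10. The last turned from -0.233 to 0.229 without control replicate 2, and was -1.46 without members below the minimum of reads. Called members numbered 0 to 103, and called member families 0 to 121 (17 without Mdd replicate 2). DESeq2 called 6 members and 9 families, and edgeR with no filter on low counts called 2 families; the cause was not tested. edgeR with the replicate number as a block called 0 members and 0 member families, and 14 of all sequences and 14 of all families; the samples share only a number. Over all sequences and families, which had 0 calls, the other counts were 245 and 280 by DESeq2, 105 and 159 with no filter, 15 and 22 without control replicate 1, 0 and 20 without control replicate 2, 2166 and 2712 without Mdd replicate 1, and 201 and 354 without Mdd replicate 2. RLE scaling, library size only and a mean CPM of at least 10 each left 0 members and 0 families called. So did all lengths and reads divided by the peak number. The share of members in all 4 samples was 3.90%, and 2.92% without members below the minimum of reads. The share in all of the remaining 3 samples was 6.47% to 7.03%, with fewer samples to be found in. The ratio at 10 bases, averaged over samples, was 1.96 to 2.33, and the A at position 10 difference from the 29 to 32 nt class was -2.87 to -2.60 points. Of the other denominators for the member share, all reads and piRNA-labelled reads made the groups overlap. Every setting run left the log2 fold changes of the 2 members given above negative, at -1.94 to -0.58 for the 1700001L05Rik and -3.13 to -1.03 for the Tbl2 sequence with each sample left out. A count of 0 allows up to 0.882 to 4.93 CPM by library, taking 3 times the peak number as the floor.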

Other observations

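Some genes with 3′ UTR or antisense members were not described above. Asb1, the gene for a SOCS box protein on chromosome 1, had 84 sense members at 29.9 and 31.0 CPM in the controls and 9.18 and 6.26 CPM in Mdd, and as a share of member reads it was at 0.194% and 0.140% against 0.0648% and 0.0854%. The processed pseudogene Gm48009 on chromosome 13 had 46 members, none of them sense, at 21.6 and 33.9 CPM against 13.8 and 3.78 CPM. Another, Gm47366 on chromosome 10, had 16 members, none of them sense, at 13.5 and 28.6 CPM against 30.6 and 5.25 CPM. These 3 genes were chosen after their values were seen.

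Few members looked like fragments of abundant structural RNAs. Of the 36654, 47 (0.128%) shared 16 bases in a row with a sequence labelled tRNA or rRNA. They held 0.0443% to 0.0956% of member reads in the controls and Mdd replicate 1, and 0.359% in Mdd replicate 2.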
